A study of Homo sapiens with 9 samples.

Results

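The genes described here are 10 genes of cellular iron handling, namely CYB561A3, TFRC, FTH1, FTL, SLC11A2, STEAP3, NCOA4, IREB2, ACO1 and SLC40A1, out of 59050 gene symbols in the deposited count table. CYB561A3 was chosen on its measured change, since earlier results of these data placed it near the top of the day 7 comparison by p-value. It is therefore described with no test in any comparison. The other 9 genes were chosen by their known function, also with earlier results of these samples known.

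RNA was sequenced from MEC1, an established B-cell line derived from chronic lymphocytic leukemia (CLL). Cells were either kept in conventional 2D culture (n = 3, culture time not given in the labels), or printed in a hydrogel scaffold and collected after 7 days (3D day 7, n = 3) or 14 days (3D day 14, n = 3). No drug, gene deletion or other agent distinguished the groups in the labels, and all 9 samples came from this 1 cell line. The titles of all 9 samples began with MECPGK, and the paper does not say what PGK stands for. RNA of 2D cells was purified on a column, whereas scaffolds went through TRIzol, DNase and then that column, so that culture format and extraction cannot be told apart in either comparison with 2D. The labels do not say whether replicates were separate cultures or scaffolds, so the p-values measure only the spread between these samples.

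Each sample held between 54662799 and 85968686 counted reads. All 8 B-cell markers passed the expression filter (CPM, a gene's reads scaled to a fixed library total, above 1 in at least 3 samples) and summed to 10239 to 19041 CPM per sample. Macrophage and monocyte markers summed to at most 1.69 CPM in any sample, and none of those 8 markers passed the filter. Erythroid markers, whose cells use iron for hemoglobin, summed to 0.183 to 0.313 CPM in 2D, 2.05 to 2.64 CPM at day 7 and 2.94 to 6.61 CPM at day 14, with HBG1 and HBG2 at 0 in every sample. Most of the scaffold sums was HBA1, with 0.0131 to 0.0323 CPM in 2D, 1.24 to 2.03 at day 7 and 2.11 to 3.86 at day 14. HBA1 was the 1 of these 8 markers that passed the filter. It did so only through the scaffold samples, so its test is not used. In bulk RNA of this kind, fewer cells of a type and less RNA per cell cannot be told apart.

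Iron carried by transferrin enters cells through transferrin receptor 1, the product of TFRC, and is reduced in the endosome by STEAP3 before SLC11A2 moves it into the cytosol. Surplus iron is kept in ferritin, a shell built of the heavy chain FTH1 and the light chain FTL, which NCOA4 delivers to lysosomes for iron release, while SLC40A1 (ferroportin) is the known cellular exporter. The cytosolic aconitase ACO1 and the related IREB2 are the iron regulatory proteins, which in iron-poor cells bind hairpins called iron responsive elements, blocking translation of ferritin and stabilizing the TFRC message.

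Those hairpins are shown for the messages among the 10 in which the form of the element described here was found. The untranslated regions (UTRs) of the annotated transcripts (GRCh38, GENCODE release 44) were searched on the transcript strand. The form searched was an unpaired C, 5 paired bases, the loop CAGTG followed by A, C or T, and the 5 pairing bases. The sequences run 5′ to 3′ with the 6 loop bases in capitals. In the 5′ UTR, 1 element was found in each of FTH1 (minus strand, chr11:61967574-61967602), FTL (plus strand, chr19:48965335-48965363) and SLC40A1 (minus strand, chr2:189580661-189580689).
FTH1: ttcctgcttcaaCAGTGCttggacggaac
FTL: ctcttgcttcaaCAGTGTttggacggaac
SLC40A1: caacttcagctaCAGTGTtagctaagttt
The 3′ UTR of TFRC held 4 elements on the minus strand, at chr3:196050979-196051007, chr3:196050575-196050603, chr3:196050510-196050538 and chr3:196050463-196050491, in the order in which they lie along the message.
TFRC element 1: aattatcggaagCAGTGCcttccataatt
TFRC element 2: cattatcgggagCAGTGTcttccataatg
TFRC element 3: ctgtatcggagaCAGTGAtctccatatgt
TFRC element 4: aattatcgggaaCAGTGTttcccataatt
CYB561A3 had 1 match in the 3′ UTR, at chr11:61351098-61351126 on the minus strand, present in 1 of its 13 coding transcripts and not in the MANE Select transcript, the single transcript per gene chosen jointly by RefSeq and Ensembl/GENCODE.
CYB561A3: ccacagcctgccCAGTGAggcggtctttg
Of 19061 MANE Select transcripts searched, 11 (0.0577%) held such a hairpin in the 5′ UTR and 97 (0.509%) in the 3′ UTR. A match is a description of the letters and not a measured binding site, and other forms of the element were not searched. SLC11A2, STEAP3, NCOA4, IREB2 and ACO1 had no match, which does not show that these messages carry no element. Counts of messenger RNA do not measure translation, the step at which ferritin is known to be regulated through its hairpin.

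TFRC (chr3:196049284-196082094, minus strand), which encodes the receptor that brings transferrin-bound iron into the cell, rose 3.04-fold at day 7 and was lower again at day 14. Its level was 113, 129 and 130 CPM in the 2D samples, 330, 370 and 432 CPM at day 7 and 87.1, 203 and 161 CPM at day 14, where CPM is scaled by edgeR's trimmed mean of M-values (TMM). All day 7 samples lay above every other sample, while the day 14 samples spread on both sides of the 2D range. The log2 fold change was 1.603 (SE 0.246) at day 7 against 2D, with an adjusted p of 0.000292 in edgeR (quasi-likelihood test, p-values adjusted by Benjamini and Hochberg's method over 13463 genes and called at 0.05 or less, as for all adjusted p-values below). From day 7 to day 14 it was -1.33 (SE 0.244, edgeR adjusted p = 0.00237). Against 2D, the day 14 value was 0.28 (SE 0.241, edgeR adjusted p = 0.395), which depended on single samples, being 0.56 (edgeR adjusted p = 0.00901) without the first day 14 replicate and -0.00099 (edgeR adjusted p = 0.998) without the second. The 8 markers of dividing cells, which need iron for DNA synthesis, summed to 1686 to 1741 CPM in 2D, 628 to 924 CPM at day 7 and 489 to 626 CPM at day 14. All 8 fell at day 7 and at day 14 against 2D, and their part in the TFRC values was not tested.

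**Figure D1:**
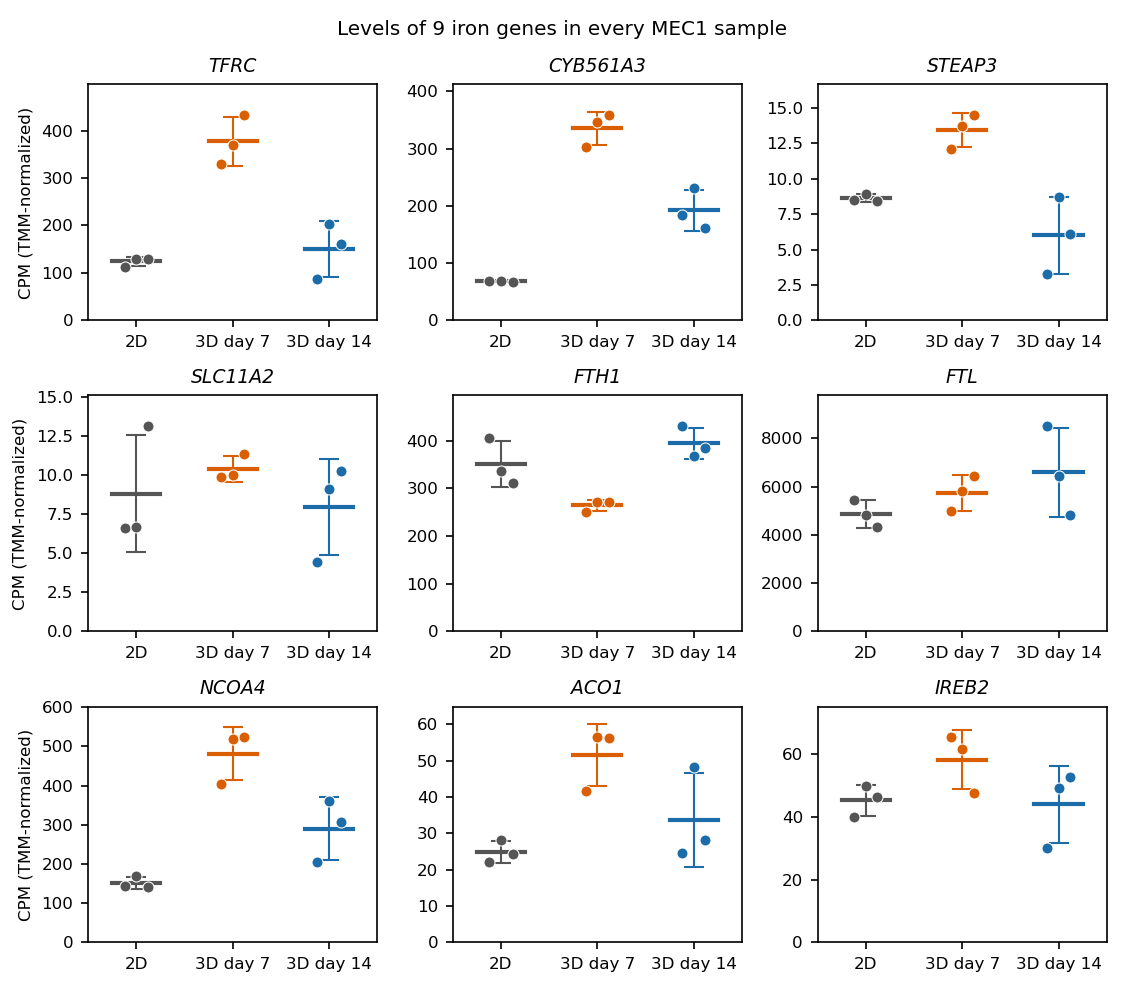
TMM-normalized CPM (y axes, from 0, scaled per gene) of the 9 iron genes above the expression filter in 2D, 3D day 7 and 3D day 14 samples. Points are samples, thick lines are means and error bars are SD (n = 3). TFRC, CYB561A3 and NCOA4 were highest in all day 7 samples, FTH1 was lowest there, and day 14 samples were the most scattered for TFRC, FTL and NCOA4.

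CYB561A3 (chr11:61348745-61362299, minus strand) belongs to the cytochrome b561 family of transmembrane reductases and is known to reduce ferric iron in lysosomes. It was listed for its change, so its values are a description with no test. Its level was 69.1, 68.4 and 66.6 CPM in 2D, 303, 346 and 358 CPM at day 7, and 184, 231 and 162 CPM at day 14. The 3 groups did not overlap, with day 14 lying between the others. The log2 fold change was 2.30 (4.94-fold) at day 7 against 2D, 1.50 (2.83-fold) at day 14 against 2D and -0.80 at day 14 against day 7. Of its exonic bases, 19.4% are shared with AP003108.3 and 8.72% with TKFC, both on the opposite strand, and the SMART-Seq v4 library kit does not keep strand. Reads over those bases cannot be assigned with certainty. AP003108.3 had 10 to 100 counts per sample and TKFC 3123 to 6093, beside 4201 to 19006 for CYB561A3.

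STEAP3 (chr2:119223831-119265652, plus strand), the endosomal ferrireductase that acts on transferrin-delivered iron, was a low transcript. It stood at 8.52, 8.95 and 8.39 CPM in 2D, 12.1, 13.7 and 14.5 CPM at day 7 and 3.25, 8.67 and 6.08 CPM at day 14. Every day 7 sample was above every sample of the other groups. STEAP3 fell from day 7 to day 14, with a log2 fold change of -1.16 (SE 0.288, edgeR adjusted p = 0.0108). The day 7 value against 2D was 0.64 (SE 0.284, edgeR adjusted p = 0.0857) and missed the threshold, which it passed in the fit of the 6 samples of that comparison alone (adjusted p = 0.00480). For day 14 against 2D the value was -0.52 (SE 0.286, edgeR adjusted p = 0.170). Without the second day 14 replicate it was -0.88 with an adjusted p of 0.0247.

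SLC11A2 (chr12:50979784-51028566, minus strand), the divalent metal transporter that takes ferrous iron out of the endosome, passed no test. It was measured at 6.63, 6.68 and 13.1 CPM in 2D, 9.89, 9.998 and 11.4 CPM at day 7 and 4.45, 9.12 and 10.3 CPM at day 14. The groups overlapped in all 3 comparisons, with the third 2D replicate above all other samples and the first day 14 replicate below them. Its log2 fold changes were 0.24 (SE 0.326), -0.15 (SE 0.327) and -0.39 (SE 0.328) for day 7 against 2D, day 14 against 2D and day 14 against day 7. The lowest of the 3 edgeR adjusted p-values was 0.395.

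Of the 2 ferritin chains, FTH1 passed the test in 2 comparisons and FTL in none. FTH1 (chr11:61959718-61967634, minus strand), the chain with ferroxidase activity, stood at 405, 337 and 311 CPM in 2D, 251, 272 and 271 CPM at day 7 and 430, 368 and 386 CPM at day 14. All day 7 samples were below all samples of the other groups, and 2D and day 14 overlapped. FTH1 fell by 0.41 on the log2 scale at day 7 (SE 0.141, edgeR adjusted p = 0.0324), and was higher at day 14 than at day 7 by 0.58 (SE 0.141, adjusted p = 0.0100). The day 7 call was made in 12 of 20 settings and lost without any 1 of the day 7 replicates (adjusted p of 0.0626 to 0.0795). It was also lost without the first or the second 2D replicate, with both other filters and with the trend of gene length removed. The highest edgeR adjusted p of these settings was 0.216. The day 14 value against 2D was 0.17 (SE 0.141, edgeR adjusted p = 0.370). The level of FTH1 carries a particular uncertainty, since 880 of the 1203 bases of its MANE Select transcript (73.2%) lie over BEST1 on the opposite strand. BEST1 itself had 55 to 436 counts per sample beside 14282 to 31336 for FTH1.

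FTL (chr19:48965309-48966879, plus strand), the chain that favors iron core formation, was the most abundant of the 10 messages. It stood at 5460, 4822 and 4325 CPM in 2D, 4970, 5805 and 6453 CPM at day 7 and 8494, 6434 and 4834 CPM at day 14. The groups overlapped in all 3 comparisons, and no comparison passed the test. The log2 fold changes were 0.24 (SE 0.194, edgeR adjusted p = 0.342) at day 7 against 2D, 0.44 (SE 0.194, adjusted p = 0.0966, unadjusted p = 0.0431) at day 14 against 2D and 0.20 (SE 0.194, adjusted p = 0.469) between the time points. FTL is also the shortest of the 10 genes (871 bases of exon), and after the trend with gene length was removed within each sample its day 7 value was 0.61 (adjusted p = 0.00471). Without the third day 14 replicate, its day 14 value against 2D was 0.62 (adjusted p = 0.0138).

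Per kilobase of exon, the ratio of FTH1 to FTL was 0.0394 ± 0.00118 (SD, n = 3) in 2D culture, and 0.0254 ± 0.00234 and 0.0343 ± 0.00837 in the scaffolds of day 7 and day 14. The ratio of TFRC to FTH1, set by an uptake gene that rose and a storage gene that fell, was 0.110 ± 0.0221 for 2D samples, 0.434 ± 0.0457 for day 7 and 0.119 ± 0.0537 for day 14. The day 7 samples lay apart from the other 6 in the ratio of TFRC to FTH1. In the ratio of FTH1 to FTL they were the lowest by a small margin, the nearest values being 0.0276 at day 7 and 0.0277 at day 14. Both ratios are given as a description. Their size depends on how reads over BEST1 were assigned, since 57.6% of the exonic bases of FTH1 are shared with BEST1. FTL and TFRC share no exonic bases with another gene. The processed copies of the ferritin genes, which share most of their sequence with the parents, took few reads: the 25 FTH1 copies held 0.646% to 1.16% of the summed counts of parent and copies, and the 16 FTL copies 0.0560% to 0.0990%.

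NCOA4 (chr10:46005088-46030714, minus strand), the receptor that carries ferritin to the lysosome, rose at both time points. It stood at 144, 170 and 141 CPM in 2D, 403, 518 and 523 CPM at day 7 and 204, 360 and 307 CPM at day 14. No sample of one group fell in the range of another. The log2 fold change was 1.67 (SE 0.202, 3.17-fold, edgeR adjusted p = 5.89e-05) at day 7 and 0.94 (SE 0.198, 1.91-fold, adjusted p = 0.00309) at day 14, each against 2D. From day 7 to day 14 it fell by 0.73 (SE 0.198, edgeR adjusted p = 0.0163), a call lost without the second or the third day 7 replicate (adjusted p of 0.0649 and 0.0666).

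**Figure D2:**
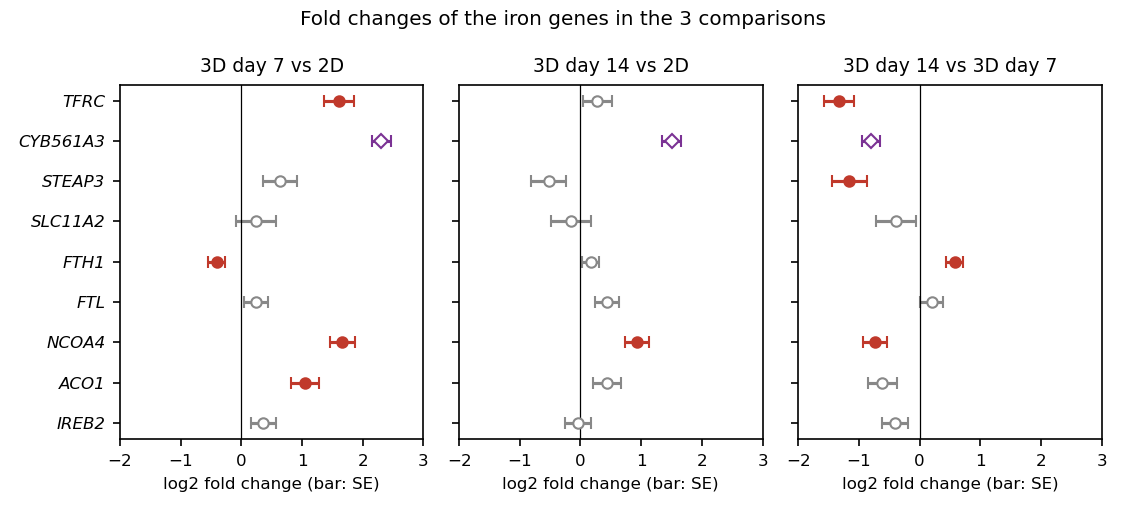
Log2 fold change (x axes, bars are SE, n = 3 per group) of 9 iron genes in the 3 comparisons. Filled red circles passed an edgeR adjusted p of 0.05, open grey circles did not, and open purple diamonds mark CYB561A3, which was not tested. The bars of CYB561A3 are not to be read as a test. TFRC, NCOA4 and ACO1 lay to the right of 0 at day 7 against 2D and FTH1 to the left.

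Of the 2 iron regulatory proteins, ACO1 rose at day 7 and IREB2 passed no test. ACO1 (chr9:32384603-32454769, plus strand), the cytosolic aconitase that becomes an RNA-binding protein when it loses its iron-sulfur cluster, stood at 22.04, 28.1 and 24.4 CPM in 2D, 41.6, 56.4 and 56.3 CPM at day 7 and 24.5, 48.3 and 28.1 CPM at day 14. All day 7 samples lay above the 2D samples, and only the second day 14 replicate reached the day 7 range. ACO1 rose by 1.05 on the log2 scale at day 7 (SE 0.239, edgeR adjusted p = 0.00363). At day 14 the value was 0.44 against 2D (SE 0.237, edgeR adjusted p = 0.168) and 0.62 without the first day 14 replicate (adjusted p = 0.0352). Between the time points it was -0.61 (SE 0.237, edgeR adjusted p = 0.0711), and it passed the threshold in 5 of 20 settings, with an adjusted p of 0.00411 without the second day 14 replicate.

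IREB2 (chr15:78438216-78501453, plus strand), whose protein is degraded when iron is plentiful, stood at 39.8, 49.7 and 46.1 CPM in 2D, 65.2, 61.6 and 47.4 CPM at day 7 and 30.0, 49.2 and 52.5 CPM at day 14. The groups overlapped in every comparison. Its log2 fold changes were 0.36 (SE 0.209, edgeR adjusted p = 0.178), -0.04 (SE 0.209, adjusted p = 0.893) and -0.40 (SE 0.209, adjusted p = 0.164) in the same order of comparisons as above. In the fit of the 6 samples of day 7 and 2D alone the first of these had an adjusted p of 0.0444. The difference between ACO1 and IREB2 was itself not tested.

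SLC40A1 (chr2:189560579-189580887, minus strand), the iron exporter, had 0, 4 and 0 counts in the 2D samples, 4, 0 and 2 at day 7 and 2, 0 and 1 at day 14. It was below the expression filter, no fold change is given, and a change was not detectable at this depth.

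Of the 9 genes other than CYB561A3, 8 were tested, since SLC40A1 was below the filter. Among these 8, 3 rose (TFRC, NCOA4 and ACO1) and 1 fell (FTH1) at day 7 against 2D, where 22.2% of all tested genes rose and 21.2% fell. At day 14 against 2D, 1 rose (NCOA4) and none fell by edgeR, nor at an unadjusted p below 0.05 or by the Wald test of DESeq2, beside 19.0% and 17.2% of all tested genes. At day 14 against day 7, 1 rose (FTH1) and 3 fell (TFRC, STEAP3 and NCOA4), beside 14.5% and 13.6%. The 3 comparisons share samples, and a count over so few chosen genes is a description. Without the first day 14 replicate, 3 genes were called higher at day 14 against 2D, with TFRC and ACO1 joining NCOA4. That replicate had the lowest level of its group for 6 of the 9 detected genes and the highest for FTH1 and FTL, which are also the 2 shortest of them (1591 and 871 bases of exon against 4079 to 9471). The part of gene length in that pattern was not tested. When samples were scaled by total counts alone, the median of all genes moved to -0.16 at day 7 and -0.18 at day 14 against 2D, and 2157 genes rose and 3575 fell at day 7 (2985 and 2853 with TMM), while at day 14 1604 rose and 3246 fell (2557 and 2318 with TMM).

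**Figure D3:**
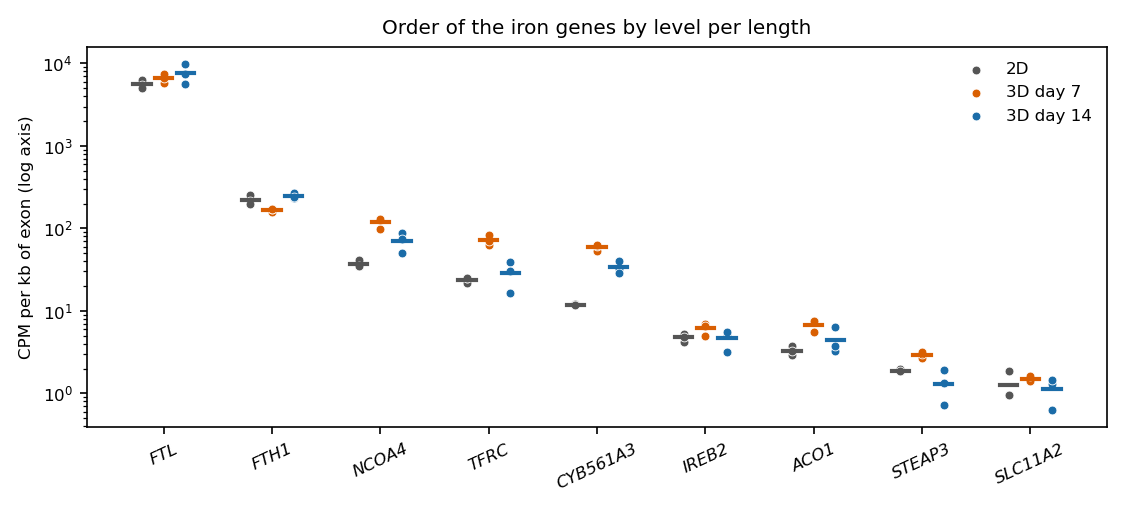
CPM per kilobase of exon (y axis, log scale) of 9 iron genes, ordered by their mean in 2D. Points are samples and short lines are group means (n = 3). FTL was the highest gene in every sample, and NCOA4, TFRC and CYB561A3 moved toward FTH1 at day 7. The level of FTH1 is uncertain because of its overlap with BEST1.

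Levels between genes were compared per kilobase of exon. The level of FTH1 relative to the other genes is uncertain, because of its exonic overlap with BEST1 given above. In 2D the order was FTL (5590 CPM per kb), FTH1 (221), NCOA4 (37.2), TFRC (23.8), CYB561A3 (11.9), IREB2 (4.77), ACO1 (3.29), STEAP3 (1.89) and SLC11A2 (1.26), and of these neighbours only STEAP3 and SLC11A2 overlapped between samples. At day 7 FTH1 (166 CPM per kb) and NCOA4 (118) came closer, TFRC stood at 72.2 and CYB561A3 at 58.9, and ACO1 (6.80) and IREB2 (6.13) overlapped. At day 14 CYB561A3 (33.7 CPM per kb) and TFRC (28.8) overlapped, as did IREB2 (4.63) and ACO1 (4.45), and STEAP3 (1.32) and SLC11A2 (1.13).

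The genes whose log2 CPM followed TFRC most closely over the 9 samples were XRN2, MIEF1, ATP2C1, AQR and DHX15, with Pearson r between 0.992 and 0.995. For CYB561A3 they were GTF3C1, FASTKD5, UBA1, HNRNPM and SLC35A4, with r between 0.993 and 0.995. These are descriptions over 9 samples that share 3 groups. GTF3C1, for example, had a mean of 46.9 CPM in 2D culture, 107 CPM at day 7 and 76.4 CPM at day 14, and XRN2 had means of 88.7, 161 and 96.3 CPM.

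Beyond the 10 genes, 88 further iron genes were listed by function in 8 lists, of which 70 passed the filter. At day 7 against 2D, 18 rose (25.7%) and 8 fell (11.4%), beside 22.2% and 21.2% of all tested genes, with a median log2 fold change of 0.18 beside -0.0039 over all genes. Day 14 against 2D gave 16 that rose (22.9%) and 9 that fell (12.9%), beside 19.0% and 17.2% of all tested genes (median 0.09, all genes 0.02). Between the time points, 8 were higher (11.4%) and 11 lower (15.7%) at day 14, beside 14.5% and 13.6% (median -0.10, all genes -0.0012). No test was made of these shares against those of all genes, and nothing is read from them about iron genes as a set. The counts include HEPH, which passed the filter only through the scaffold samples, and without it 17 of 69 genes rose at day 7 and 15 at day 14 against 2D. Of the 51 calls for the genes named by rule from these lists, 33 were made in all 19 alternative settings and 18 were lost in at least 1. Both the 51 and the 33 include the calls of HEPH at day 7 and at day 14 against 2D, whose test is not used. The genes described next are those whose call was made in every setting, except where a loss is given.

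Among uptake and reductase genes, EXOC6, an exocyst subunit that helps transferrin receptor recycling, rose 3.13-fold at day 7 (log2 fold change 1.64, SE 0.221, edgeR adjusted p = 0.000117) and was lower at day 14 than at day 7 (-0.92, adjusted p = 0.00860). It was the 1 of 6 tested uptake genes (16.7%, beside 22.2% of all genes) that rose at day 7. SLC39A14, a zinc and iron importer, fell from a mean of 62.6 CPM at day 7 to 29.4 CPM at day 14 (log2 fold change -1.09, edgeR adjusted p = 0.0168), a call lost without the second day 7 replicate. CYB561D1, a relative of CYB561A3, rose 2.02-fold at day 7 (log2 fold change 1.02, edgeR adjusted p = 0.00463), and STEAP1, a metalloreductase, rose at day 14 both against 2D (0.75, adjusted p = 0.00453) and against day 7 (0.80, adjusted p = 0.00486). In the reductase list 2 of 7 tested genes (28.6%) rose at day 7, beside 22.2% of all genes, and 2 rose and 1 fell at day 14 against 2D, beside 19.0% and 17.2%, the calls for CYB561 and CYBRD1 being lost in 6 to 11 of the 19 alternatives.

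Of the storage and chaperone list, which holds the poly(C)-binding proteins that hand iron to ferritin, 1 of 6 tested genes rose and 1 fell at day 7 (16.7% each, beside 22.2% and 21.2% of all genes). At day 14 against 2D, 3 rose (50%) and none fell, beside 19.0% and 17.2% of all genes. The day 14 calls for PCBP3 and GLRX3 were lost in 8 and 6 of the 19 alternatives. GLRX3, a glutaredoxin that carries iron-sulfur clusters, rose 1.85-fold at day 7 (edgeR adjusted p = 0.00196). PCBP4 fell by 0.82 on the log2 scale at day 7 (adjusted p = 0.00274) and rose by 1.00 from day 7 to day 14 (adjusted p = 0.00201), and PCBP3 rose by 0.73 between the time points (adjusted p = 0.00361). Among export genes, HEPH, the ferroxidase hephaestin, was barely detected in 2D, so that it passed the filter only through the groups where it was high and its test is not used, with 0, 10 and 3 counts in 2D, 59, 59 and 86 at day 7 and 87, 80 and 150 at day 14. FLVCR2, a heme transporter family member, rose 2.32-fold at day 14 (log2 fold change 1.21, edgeR adjusted p = 0.00403). FLVCR1 fell by 0.79 on the log2 scale at day 14 against 2D (adjusted p = 0.0198), a call lost in 2 of 19 alternatives. With HEPH counted, 2 of 3 tested export genes rose at day 7 (66.7%, beside 22.2% of all genes). At day 14 against 2D, 2 rose (66.7%) and 1 fell (33.3%), beside 19.0% and 17.2%. FBXL5, the ubiquitin ligase subunit that senses iron and targets IREB2, stood at 55.0 CPM in 2D and 86.4 CPM at day 7 (log2 fold change 0.65, adjusted p = 0.0159), a call lost in 4 of 19 alternatives.

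Of the mitochondrial list, 4 of 22 tested genes rose (18.2%) and 5 fell (22.7%) at day 7, and 3 rose (13.6%) and 5 fell (22.7%) at day 14 against 2D, shares near those of all genes (22.2% and 21.2%, then 19.0% and 17.2%). SLC25A37 (mitoferrin-1), which imports iron into mitochondria, fell from 35.4 CPM in 2D to 11.3 CPM at day 7 (log2 fold change -1.65, SE 0.222, edgeR adjusted p = 0.000117) and 17.5 CPM at day 14 (-1.02, adjusted p = 0.00324). ABCB8, an inner-membrane transporter, rose 3.34-fold at day 7 (log2 fold change 1.74, adjusted p = 1.14e-05) and 1.96-fold at day 14 (adjusted p = 0.000675). ISCU, the scaffold on which iron-sulfur clusters are built, rose 2.35-fold at day 14 (log2 fold change 1.23, adjusted p = 0.000260). In the cytosolic assembly list 3 of 9 genes rose at day 7 (33.3%, beside 22.2% of all genes), and 1 rose and 1 fell at day 14 against 2D (11.1% each, beside 19.0% and 17.2%). CIAPIN1 rose 2.57-fold at day 7 and 1.96-fold at day 14 (adjusted p of 6.02e-05 and 0.000738), whereas its electron donor NDOR1 rose 2.09-fold at day 7 (adjusted p = 0.000512) and fell by 1.05 on the log2 scale from day 7 to day 14 (adjusted p = 0.00156).

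Of the heme genes, 4 of 12 tested rose (33.3%) and 2 fell (16.7%) at day 7, beside 22.2% and 21.2% of all genes, and 3 rose (25%) and 1 fell (8.33%) at day 14 against 2D, beside 19.0% and 17.2%. ALAS1, the rate-limiting enzyme of heme synthesis outside erythroid cells, rose 1.91-fold at day 7 (log2 fold change 0.93, edgeR adjusted p = 0.000370). UROD, a later enzyme of the pathway, rose 2.23-fold at day 7 and 2.53-fold at day 14 (adjusted p of 0.00112 and 0.000631), while PPOX, the enzyme before the last, fell by 0.80 and 1.07 on the log2 scale (adjusted p of 0.00338 and 0.000792). BLVRB, a biliverdin reductase of heme breakdown, had 89.0, 77.9 and 76.4 CPM in 2D, 24.0, 33.7 and 41.9 CPM at day 7 and 110, 73.8 and 65.3 CPM at day 14. Its day 7 samples lay below all others, with a fall of 1.29 on the log2 scale against 2D (adjusted p = 0.000695) and a rise of 1.32 from day 7 to day 14 (adjusted p = 0.00161).

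**Figure D4:**
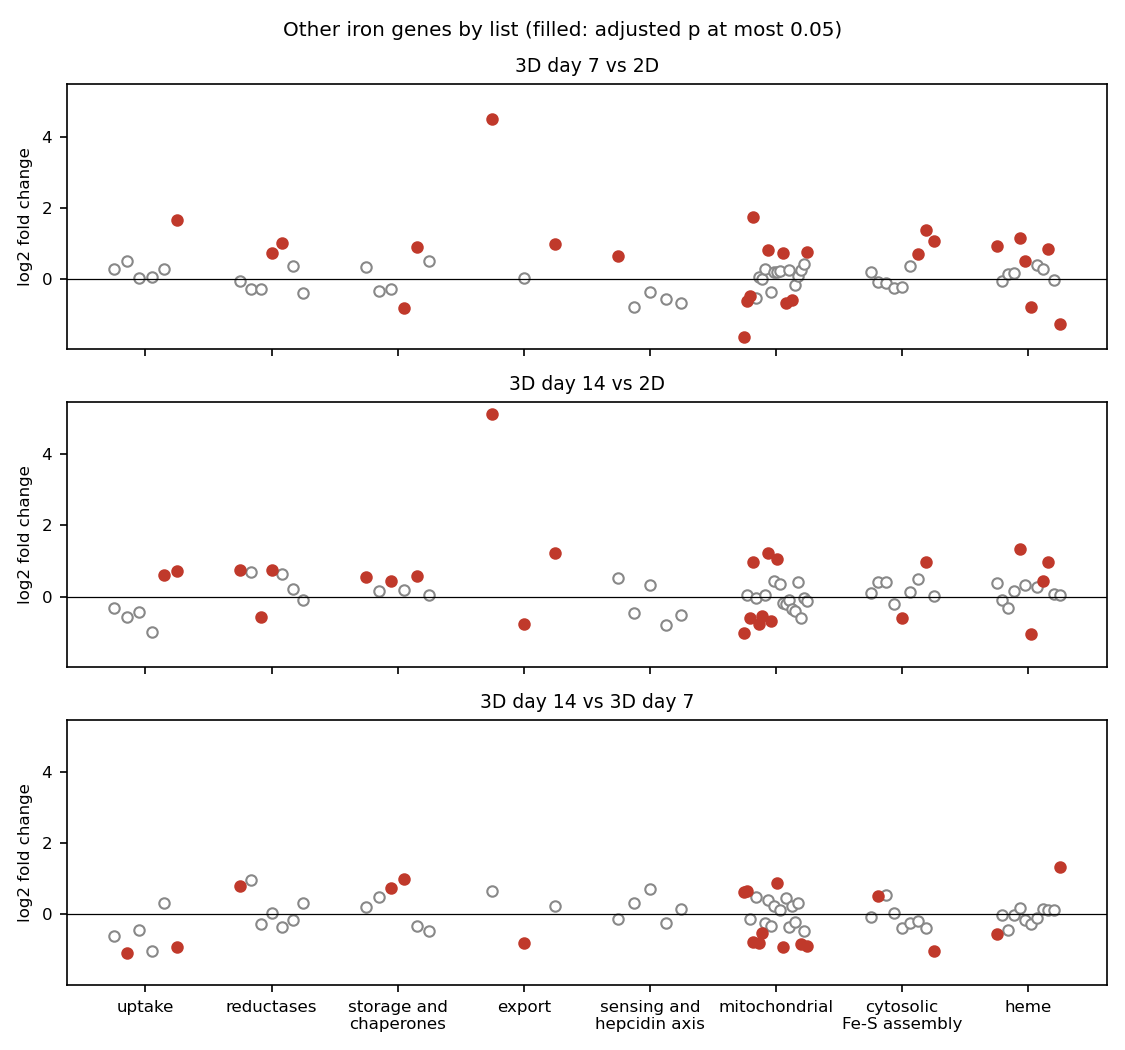
Log2 fold change (y axes) of the 70 other iron genes that passed the filter, by functional list (x axis), in the 3 comparisons. Filled red points passed an edgeR adjusted p of 0.05 and open points did not. Called genes lay on both sides of 0 in the storage and chaperone, mitochondrial and heme lists at day 7 against 2D. HEPH, which passed the filter only through the scaffold samples, is the point above 4.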

How the data were processed

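The authors trimmed single-end reads of 100 bases with Trimmomatic 0.39, aligned them to GRCh38 (GENCODE release 31) with STAR 2.5.3a and assigned them to genes with featureCounts 1.6.4. They deposited raw read counts per gene symbol for all 9 samples, with a gene length column giving bases of exon. The strand setting and the treatment of multi-mapping and overlapping reads are not given in the sources used here.

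Counts were tested as deposited with the quasi-likelihood test of edgeR 4.0.16 in R 4.3.3, using TMM scaling, 1 mean per group over all 9 samples, genes with CPM above 1 in at least 3 samples (13463 of 59050) and Benjamini-Hochberg adjustment over all of them at 0.05. The fit was tested on simulated data. The 10 genes and all lists were chosen with earlier results of these data known. From each other iron list and comparison, up to 2 called genes with the smallest p-values in each direction were named, of which 1 is not reported here. Alternatives were other scalings, DESeq2 1.42.0, other filters, gene length, pseudogene counts, fewer samples and a replicate block. Totals ranged from 54662799 to 85968686 counts per sample. Coordinates and hairpins come from GRCh38 with GENCODE release 44. Marker lists of other cell types served as checks, of which T and NK markers summed to 311 to 356 CPM in 2D, 462 to 489 at day 7 and 531 to 722 at day 14, with 2 of 8 called higher against 2D at both times. Nearly all of these sums was TRAC, with 310 to 715 CPM per sample, and no other marker of that list exceeded 6.02 CPM. Only the 2 called markers passed the filter. Fibroblast markers summed to 10.3 to 11.4 CPM, 2.35 to 5.32 and 2.67 to 8.89, with 2 of 6 called lower at day 7. Their part in the iron gene values was not tested. No 2 samples held identical counts.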

Additional observations from a re-analysis of the deposited data

Results flagged for a closer look

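The effect of the scaffold against 2D differed between day 7 and day 14, by the direct edgeR test of day 14 against day 7, for 4 of the tested members. These were TFRC (log2 difference -1.33), STEAP3 (-1.16), NCOA4 (-0.73) and FTH1 (0.58). Among the other iron genes named by rule, ABCB8 (-0.77), ALAS1 (-0.56), EXOC6 (-0.92), FLVCR1 (-0.81), HSPA9 (-0.92), NDOR1 (-1.05) and SLC39A14 (-1.09) were lower at day 14 than at day 7. BLVRB (1.32), CIAO2A (0.52), GLRX5 (0.89), PCBP3 (0.73), PCBP4 (1.00), SLC25A28 (0.66) and STEAP1 (0.80) were higher. Of these, the calls for CIAO2A and SLC25A28 were lost in 11 and 7 of 19 alternatives that for FLVCR1 in 5, those for NCOA4, ALAS1 and GLRX5 in 2 and those for FTH1 and SLC39A14 in 1. CYB561A3 was left out, having been listed for its change. No explanation was tested for these differences.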

How the results depend on the processing

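Other iron genes lower at day 7 against 2D (8) numbered 14 with only the 6 samples of that comparison, and 5 to 11 when 1 sample was left out. At day 14 against 2D, all genes called higher (2557) numbered 1604 with total counts alone and 1564 to 2845 with 1 sample left out, and other iron genes called higher (16) numbered 10 with total counts alone, 10 with no filter and 10 to 19 with 1 sample left out, while those called lower (9) numbered 5 to 12. At day 14 against day 7, other iron genes called higher (8) numbered 5 with no filter, 5 with only the 6 samples and 4 to 10 with 1 sample left out, and those called lower (11) numbered 7 to 15. Over all genes the same comparison gave 1193 to 2187 higher and 1092 to 2141 lower with 1 sample left out, and 1122 lower with only the 6 samples. The fits of 6 samples and those with 1 sample left out hold fewer samples than the main fit, and the cause of these shifts was not tested. Uncalled values changed sign for FTH1 at day 14 against 2D (-0.033 with total counts alone), FTL at day 14 against day 7 (-0.29 with the length trend removed, -0.011 to 0.38 with 1 sample left out), IREB2 (0.087 with the length trend removed, -0.19 to 0.17), SLC11A2 (-0.38 to 0.22) and TFRC (-0.00099 to 0.56), the last 3 at day 14 against 2D. Replicate numbers were not used to pair the samples in the main fit. The 9 same-numbered pairs had correlations of -0.09998 to 0.1852, and a sample correlated best with its own number in 6 of 18 cases. Those cases all lay between 2D and day 14, where the same-numbered pairs had correlations of 0.1852, 0.1081 and 0.09315. Whether the numbers pair those samples was not tested. With the replicate block, 2939 genes rose and 2821 fell at day 7 against 2D, and among the members the 1 call that changed was ACO1 at day 14 against day 7, now lower (adjusted p = 0.0209). Adding pseudogene counts to FTH1 and FTL changed no call among the members.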
